A study of Mus musculus with 21 samples.

Results

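RNA-seq of nigral tissue from MPTP treated mice was examined for 8 genes that glucocorticoid is known to induce in brain or that carry its signal, Fkbp5, Sgk1, Tsc22d3, Hif3a, Zbtb16, Cdkn1a, Plin4 and the receptor gene Nr3c1. They were chosen by gene name from the tables of the 2 experiments, with 33829 genes (pre-treatment) and 55385 genes (delayed treatment), and each name matched 1 gene in both. The list was drawn up with results of these mice known, and the values behind the choice are not recorded, except that Hif3a was already known to change in MPTP mice that received irisin first. All 8 genes passed the filter on low counts in both experiments.

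The study injected male C57BL/6 mice, labelled as 6 weeks old, intraperitoneally for 10 days and sequenced bulk RNA of tissue labelled midbrain. MPTP is converted in the brain to a toxin of dopaminergic neurons. Irisin is a hormone cut from the muscle membrane protein FNDC5. The pre-treatment experiment asked what irisin given ahead of the toxin does and had 3 groups of 3 mice: control mice given ddH2O for 10 days, MPTP mice given ddH2O for 5 days and then MPTP (30 mg/kg/d) for 5 days, and mice given irisin (200 µg/kg/d) for 5 days and then MPTP for 5 days. The delayed treatment experiment asked the same of irisin given afterwards and had 4 groups of 3 mice: control mice given ddH2O for 10 days, mice given ddH2O for 5 days and then irisin for 5 days, mice given MPTP for 5 days and then ddH2O for 5 days, and mice given MPTP for 5 days and then irisin for 5 days. Every mouse was thus handled and injected on 10 days, and the last injection of the MPTP groups was MPTP in the first experiment and ddH2O or irisin in the second. The labels give no time of day and no date of collection. They name no litters, so the p-values below measure the spread between these mice.

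Glucocorticoid, in mice corticosterone, is released from the adrenal gland under stress and in a daily rhythm. It binds the glucocorticoid receptor, a transcription factor that waits in the cytoplasm in a complex with heat shock proteins, moves to the nucleus when it holds the hormone, and binds palindromic DNA elements near the genes it induces. In brain, glial and endothelial cells respond strongly, and the induced genes include brakes on the receptor itself, such as Fkbp5.

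The DNA before the starts of these genes was read from the RefSeq promoter table of GRCm38.p6. Windows of 300 bases were used for 6 of the 8 genes, 14 windows in all. No windows of Zbtb16 and Nr3c1 were used, so these genes are named only. The classic receptor element was searched as its arms AGAACA and TGTTCT, which are each other's reverse complement, so that both strands were covered. At least 1 arm lay in 4 of the 14 windows, against 18.97% of 32851 windows of all genes. By gene, 2 of the 6 had an arm, against 21.28% of 27025 genes. Of 24 other glucocorticoid-induced genes with windows, 3 had an arm (12.5%), in 4 of 30 windows (13.33%). Arms were found at Sgk1 (3 of its windows) and Tsc22d3 (1 window), and the complete palindrome, AGAACA and TGTTCT with 3 bases between them, lay in 1 window of Sgk1. Only 3 of the 32851 windows held it (0.0091%), the other two belonging to Acnat2 and Gm35041. The 250 bases before the start are shown for the Sgk1 window with the palindrome, at chr10:21993640-21993889 on the plus strand, for the Tsc22d3 window with an arm, at chrX:140600523-140600772 on the minus strand, and for Plin4, the gene with the widest range below, at chr17:56109783-56110032 on the minus strand, each 5′ to 3′ with the arms in capitals.
Sgk1: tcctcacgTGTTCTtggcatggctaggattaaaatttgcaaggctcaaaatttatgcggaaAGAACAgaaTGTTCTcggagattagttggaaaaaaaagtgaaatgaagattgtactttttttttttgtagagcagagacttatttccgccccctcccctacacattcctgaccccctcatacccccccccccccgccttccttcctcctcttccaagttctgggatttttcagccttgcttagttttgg
Tsc22d3: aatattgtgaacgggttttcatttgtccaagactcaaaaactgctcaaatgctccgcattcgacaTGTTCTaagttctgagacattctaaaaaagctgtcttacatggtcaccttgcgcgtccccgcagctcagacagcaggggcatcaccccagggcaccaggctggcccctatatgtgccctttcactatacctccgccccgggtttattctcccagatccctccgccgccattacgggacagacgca
Plin4: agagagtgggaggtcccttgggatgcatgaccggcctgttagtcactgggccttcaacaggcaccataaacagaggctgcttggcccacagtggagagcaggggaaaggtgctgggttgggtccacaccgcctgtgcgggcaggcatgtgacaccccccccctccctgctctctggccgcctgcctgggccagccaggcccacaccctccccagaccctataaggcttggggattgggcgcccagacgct
The palindrome of Sgk1 spans 15 bases that end 175 bases before the start of that transcript. The Plin4 stretch holds neither arm, which says only that these letters are not in it. A match describes the sequence and shows no binding.

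The 8 genes lie on 6 chromosomes by the files' coordinates, which are those of GRCm38. Fkbp5 (ENSMUSG00000024222; 28399094 to 28517527, minus strand) and Cdkn1a (ENSMUSG00000023067; 29090976 to 29100727, plus strand) are 573 kb apart on chromosome 17, and Plin4 (ENSMUSG00000002831; 56100591 to 56109803, minus strand) is on the same chromosome, which carries 4.20% of annotated genes. Plin4 overlaps the opposite-strand gene Hdgfl2 by 17 of its 9213 bases at one end. Whether the counting used strand is not given in the sources used here, so reads in those bases cannot be told apart. Hdgfl2 was at 56.0 to 62.5 CPM, the counts scaled to library size, in control mice, 58.6 to 60.2 CPM in MPTP mice and 59.8 to 67.4 CPM in irisin pre-treated MPTP mice.

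Per gene length, Sgk1 was the most abundant of the genes in the pre-treatment experiment, with a median of 44.7 FPKM (fragments per kilobase of gene, scaled to library size) over 9 mice. Tsc22d3 followed at 23.6 FPKM and Nr3c1 at 9.43 FPKM. Cdkn1a, Fkbp5 and Zbtb16 had medians of 4.88, 3.13 and 2.84 FPKM, and Hif3a and Plin4 were lowest at 1.71 and 1.62 FPKM. Counts per gene and mouse ran from 114 (Plin4) to 22815 (Sgk1), with library totals of 66.7 to 75.6 M counts (pre-treatment) and 48.8 to 77.2 M counts (delayed), so that counting error was small beside the differences between mice.

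In the pre-treatment experiment the inducible genes did not move as one. Plin4, Hif3a and Zbtb16 lay in ascending steps from control over MPTP to irisin pre-treated MPTP mice, with no overlap between any of the 3 groups. Fkbp5 was highest in all irisin pre-treated mice, with overlap between control and MPTP mice. Cdkn1a had its highest mean after irisin pre-treatment, but neighbouring groups overlapped. Tsc22d3 lay on separate levels within groups, Sgk1 was highest in MPTP mice, and Nr3c1 was lowest after irisin pre-treatment. In the delayed treatment experiment none of the 8 genes passed the test in the 3 comparisons made (MPTP against control, irisin against control, MPTP then irisin against MPTP) or in the interaction.

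**Figure D1:**
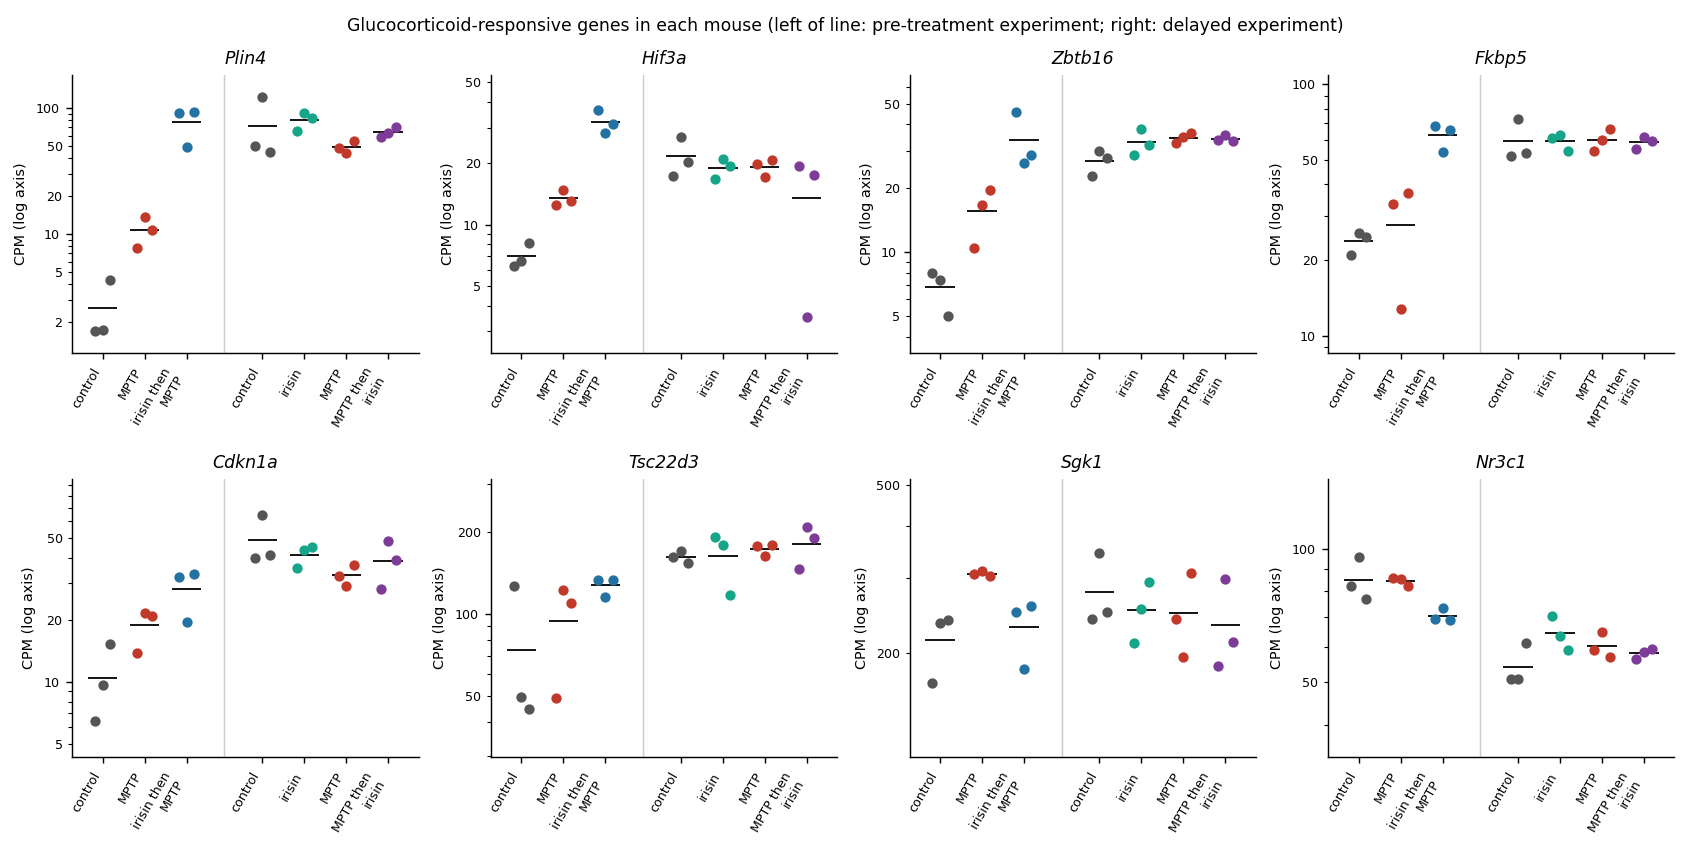
CPM of each gene in each of the 21 mice (points, log axis) with the mean of each group of 3 (line), the pre-treatment experiment left and the delayed experiment right of the grey line in each panel. Plin4, Hif3a and Zbtb16 climb over the 3 groups on the left without overlap and show no such order on the right, where 1 mouse given MPTP then irisin has Hif3a at 3.51 CPM.

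Plin4 encodes perilipin 4, a coat protein of lipid droplets. It was at 1.70, 1.73 and 4.28 CPM in the 3 control mice, at 7.77, 13.5 and 10.6 CPM in the MPTP mice, and at 91.4, 49.3 and 92.4 CPM in the irisin pre-treated MPTP mice. Every mouse of a group lay above every mouse of the group before, and the lowest and highest mouse differed by 54.3 times, the widest range of the 8 genes. The log2 fold change was 2.05 ± 0.41 (SE, n = 3 mice per group here and below) for MPTP against control (adjusted p = 0.485, quasi-likelihood test of edgeR, Benjamini-Hochberg adjusted over all genes), 2.87 ± 0.42 for irisin pre-treated MPTP against MPTP mice, and 4.92 ± 0.46 for irisin pre-treated MPTP against control mice (adjusted p = 0.012). The middle value has no p because the list may rest on that comparison, and the other two share mice with it, so that they are no independent evidence. Without irisin pre-treated mouse 3 the last difference was 4.77 with an adjusted p of 0.0501.

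Hif3a encodes an alpha subunit of the hypoxia-inducible factors, some forms of which oppose the others. Its levels were 6.28, 6.67 and 8.11 CPM in control mice, 12.6, 14.7 and 13.1 CPM in MPTP mice, and 36.4, 28.3 and 31.3 CPM in irisin pre-treated MPTP mice. Within each group the mice were close together, and the groups stood clear of each other. MPTP mice exceeded control mice by 0.94 ± 0.14 on the log2 scale (adjusted p = 0.167 by edgeR), and irisin pre-treated MPTP mice exceeded MPTP mice by 1.25 ± 0.14 and control mice by 2.19 ± 0.14 (adjusted p = 0.00125 by edgeR for the last). The last difference passed the threshold without any 1 of the 9 mice. Hif3a was already known to change in MPTP mice that received irisin first. Neither the p-values nor this stability are therefore independent evidence.

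Zbtb16 encodes the zinc finger repressor PLZF. It was at 8.02, 7.42 and 5.03 CPM in control mice, at 10.5, 16.7 and 19.6 CPM in MPTP mice, and at 45.8, 26.4 and 28.8 CPM in irisin pre-treated MPTP mice. The order was that of Plin4 and Hif3a, with more spread within groups. Log2 fold changes were 1.19 ± 0.30 for MPTP against control (adjusted p = 0.689 by edgeR), 1.11 ± 0.29 for irisin pre-treated MPTP against MPTP and 2.30 ± 0.30 for irisin pre-treated MPTP against control (adjusted p = 0.0523 by edgeR).

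The rule that every MPTP mouse lies above every control mouse and every irisin pre-treated mouse above every MPTP mouse was written after these values were seen. It was met by 3 of the 8 genes and by 39 of 22641 tested genes (0.172%). Among 28 other glucocorticoid-induced genes it was met by Sult1a1, Fam107a and Mertk, among 15 genes of the receptor machinery by none, and among 16 immediate-early genes by none. The choice of the 8 genes may rest on the second step of the rule, and all lists were drawn up with earlier results known. The shares describe the lists and are no independent evidence.

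Fkbp5 encodes an Hsp90 co-chaperone that lowers the receptor's affinity for hormone and is itself among its strongest targets. It was at 21.02, 25.7 and 24.6 CPM in control mice, at 33.4, 12.8 and 36.9 CPM in MPTP mice, and at 68.3, 53.9 and 65.9 CPM in irisin pre-treated MPTP mice. MPTP mouse 2 had the lowest level of all 9 mice, so that MPTP and control mice overlapped, while all irisin pre-treated mice lay above the other 6. The log2 fold change was 0.22 ± 0.33 for MPTP against control (adjusted p = 0.958 by edgeR), 1.18 ± 0.33 for irisin pre-treated MPTP against MPTP and 1.40 ± 0.33 for irisin pre-treated MPTP against control (adjusted p = 0.344 by edgeR). Without MPTP mouse 2, which is in neither group of the last comparison but shares its estimate of the spread, that difference was again 1.40 with an adjusted p of 0.0227. MPTP mouse 2 also stood apart in the 5 choroid plexus markers, whose summed level was 1595 CPM there and 7.10 to 23.7 CPM in the other 8 mice. The part of this in the level of Fkbp5 was not tested.

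Cdkn1a encodes the cell cycle inhibitor p21, which p53 induces too. It was at 6.43, 9.59 and 15.2 CPM in control mice, at 13.8, 21.6 and 20.7 CPM in MPTP mice, and at 32.1, 19.5 and 33.3 CPM in irisin pre-treated MPTP mice. Neighbouring groups overlapped, and irisin pre-treated MPTP mice lay above all control mice. Its log2 fold change was 0.85 ± 0.33 for MPTP against control (adjusted p = 0.823 by edgeR), 0.60 ± 0.33 for irisin pre-treated MPTP against MPTP and 1.44 ± 0.33 for irisin pre-treated MPTP against control (adjusted p = 0.317 by edgeR).

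Tsc22d3 encodes GILZ, a leucine zipper protein that carries anti-inflammatory effects of glucocorticoid. The control mice were at 126, 49.5 and 44.6 CPM, the MPTP mice at 48.9, 122 and 109.9 CPM, and the irisin pre-treated MPTP mice at 132.7, 115 and 133 CPM. Control mice 2 and 3 and MPTP mouse 1 lay between 44.6 and 49.5 CPM and the other 6 mice between 109.9 and 133 CPM, with no mouse in between. The groups overlapped in every comparison, and the log2 fold change of irisin pre-treated MPTP against control mice was 0.79 ± 0.44 (adjusted p = 0.775 by edgeR).

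Sgk1 encodes a kinase that regulates ion channels and transporters, and its induction by serum and glucocorticoid gave it its name. It was at 169, 235 and 239.6 CPM in control mice, at 307, 313 and 304 CPM in MPTP mice, and at 250.1, 183 and 258 CPM in irisin pre-treated MPTP mice. The MPTP mice were nearly equal and above all others, and control and irisin pre-treated MPTP mice overlapped. The log2 fold change was 0.52 ± 0.16 for MPTP against control (adjusted p = 0.815 by edgeR), fell by 0.42 ± 0.16 from MPTP to irisin pre-treated MPTP mice, and was 0.10 ± 0.16 for irisin pre-treated MPTP against control (adjusted p = 0.948 by edgeR). Sgk1, with the complete receptor palindrome in 1 promoter window, did not follow Plin4, Hif3a and Zbtb16. No window of Zbtb16 was searched, and a link between sequence and level was not tested.

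Nr3c1 encodes the glucocorticoid receptor, whose gene is itself held down by hormone in many cells. It was at 82.5, 95.9 and 76.8 CPM in control mice, at 85.7, 85.4 and 82.3 CPM in MPTP mice, and at 69.3, 73.4 and 68.9 CPM in irisin pre-treated MPTP mice. The irisin pre-treated mice were below the other 6, by a small step. The log2 fold change was -0.26 ± 0.08 against MPTP and -0.27 ± 0.09 against control mice (adjusted p = 0.537 by edgeR for the latter), and -0.01 ± 0.08 for MPTP against control (adjusted p = 0.996 by edgeR).

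**Figure D2:**
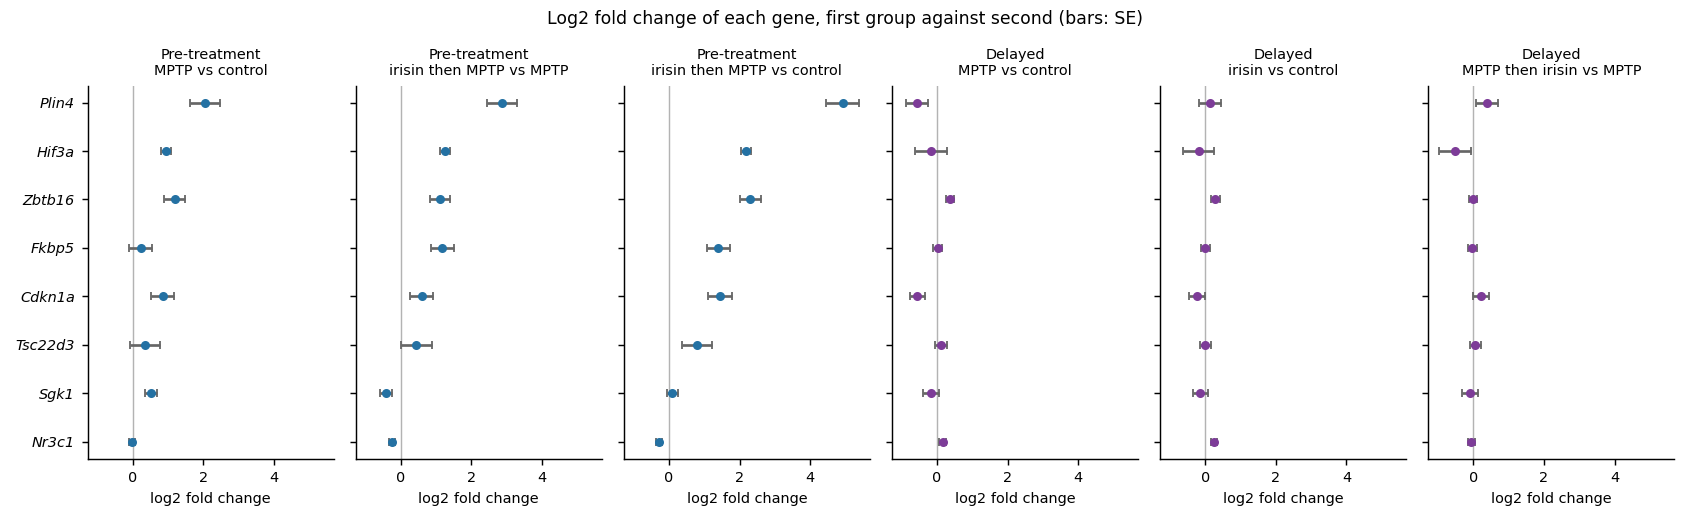
Log2 fold change (x axis) of each gene in 3 comparisons of the pre-treatment experiment (left panels) and 3 of the delayed experiment (right panels), with bars for the SE. The left panels reach 4.92 for Plin4, and the right panels stay between -0.57 and 0.40.

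Counted over the list, MPTP against control in the pre-treatment experiment gave 0 of 8 genes past an adjusted p of 0.05 with edgeR, where 0.0221% of all genes passed. The count was 5 of 8 at an unadjusted p under 0.05, all higher, against 6.03% of all genes in either direction. DESeq2 called 3 (Hif3a, Zbtb16 and Plin4), but it called more of all genes than edgeR in every comparison, with totals in the last section. The groups did not overlap in 4 genes, all higher (5.71% of all genes). The median log2 fold change of the 8 genes was 0.68, and that of all 22641 genes was -0.0018. For irisin pre-treated MPTP against control mice 2 of 8 passed (0.0707% of all genes), Plin4 and Hif3a, 5 lay wholly higher (6.65%) and 1 wholly lower (6.92%), and the median was 1.42 beside 0.0037 for all genes. Without irisin pre-treated mouse 3 the count was 1. Because the list may rest on the irisin pre-treated mice, these counts are no independent evidence.

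For irisin pre-treated MPTP against MPTP mice the values describe the list and nothing is read from them. Here 1 of 8 genes was past the threshold (Hif3a; 0.0707% of all genes), 4 lay wholly higher (7.14%) and 2 wholly lower (7.08%), and the median log2 fold change was 0.85 beside 0.0031 for all genes. The count was 0 without MPTP mouse 1 or 3 or irisin pre-treated mouse 1 or 3, and 2 without control mouse 3. These 3 comparisons share their mice.

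Ranked over the 7 inducible genes, from 1 for the lowest to 9 for the highest mouse, control mice had mean ranks of 2.29 to 2.71, MPTP mice 4.29 to 5.71 and irisin pre-treated MPTP mice 5.71 to 8.14. Irisin pre-treated mouse 2 was the lowest of its group, level with MPTP mouse 2 at 5.71. It had the lowest level of its group in each of the 7 genes.

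The delayed treatment experiment used other mice. Plin4 was at 49.9, 123 and 44.7 CPM in control mice, 65.0, 91.0 and 83.8 CPM in irisin mice, 47.8, 43.8 and 54.5 CPM in MPTP mice, and 58.8, 63.3 and 70.3 CPM in mice given MPTP then irisin. The high value of control mouse 2 put the MPTP group lower by -0.57 ± 0.31 on the log2 scale (adjusted p = 0.675 by edgeR), and without that mouse the difference was 0.04. Mice given MPTP then irisin lay wholly above MPTP mice, with a log2 fold change of 0.40 ± 0.31 (adjusted p = 1 by edgeR).

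Hif3a was at 17.4, 27.1 and 20.4 CPM in control mice, 16.7, 20.99 and 19.5 CPM in irisin mice, 19.96, 17.2 and 20.7 CPM in MPTP mice, and 19.4, 3.51 and 17.6 CPM in mice given MPTP then irisin. A single mouse, number 2 given MPTP then irisin, stood far below the other 11. The log2 fold change of MPTP then irisin against MPTP was -0.51 ± 0.45 (adjusted p = 1 by edgeR). That mouse was not low in the other 6 inducible genes, of which it had the highest Tsc22d3 level of the 12 mice, at 208 CPM.

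Zbtb16 was at 22.8, 30.0 and 27.9 CPM in control mice and at 32.6, 34.7 and 36.3 CPM in MPTP mice, which lay wholly higher by 0.36 ± 0.12 on the log2 scale (adjusted p = 0.424 by edgeR). Irisin mice were at 28.8, 37.9 and 32.0 CPM and mice given MPTP then irisin at 33.8, 35.6 and 33.3 CPM. These last 3 were as high as the MPTP mice, with a difference of -0.01 ± 0.12 (adjusted p = 1 by edgeR).

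Cdkn1a was at 40.0, 64.4 and 41.1 CPM in control mice and at 32.6, 29.2 and 36.9 CPM in MPTP mice, which lay wholly lower by -0.56 ± 0.22 (adjusted p = 0.516 by edgeR). The direction was opposite to that of MPTP mice in the pre-treatment experiment. Irisin mice were at 35.5, 43.5 and 45.1 CPM, and mice given MPTP then irisin at 28.1, 48.1 and 38.8 CPM, a group that spanned that of the MPTP mice.

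Fkbp5 stayed between 52.0 and 72.9 CPM in all 12 mice, a range of 1.40 times against 5.32 times in the pre-treatment experiment. Its log2 fold changes were 0.02 ± 0.13 for MPTP against control, 0.0016 ± 0.13 for irisin against control and -0.03 ± 0.13 for MPTP then irisin against MPTP. The groups overlapped throughout. Tsc22d3 ran from 117 to 208 CPM and Sgk1 from 186 to 345 CPM, again with overlap in each of the 3 comparisons. Nr3c1 was at 50.6, 50.7 and 61.1 CPM in control mice and at 70.3, 63.6 and 59.0 CPM in irisin mice, 0.25 ± 0.09 higher on the log2 scale (adjusted p = 0.519 by edgeR), with overlap.

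**Figure D3:**
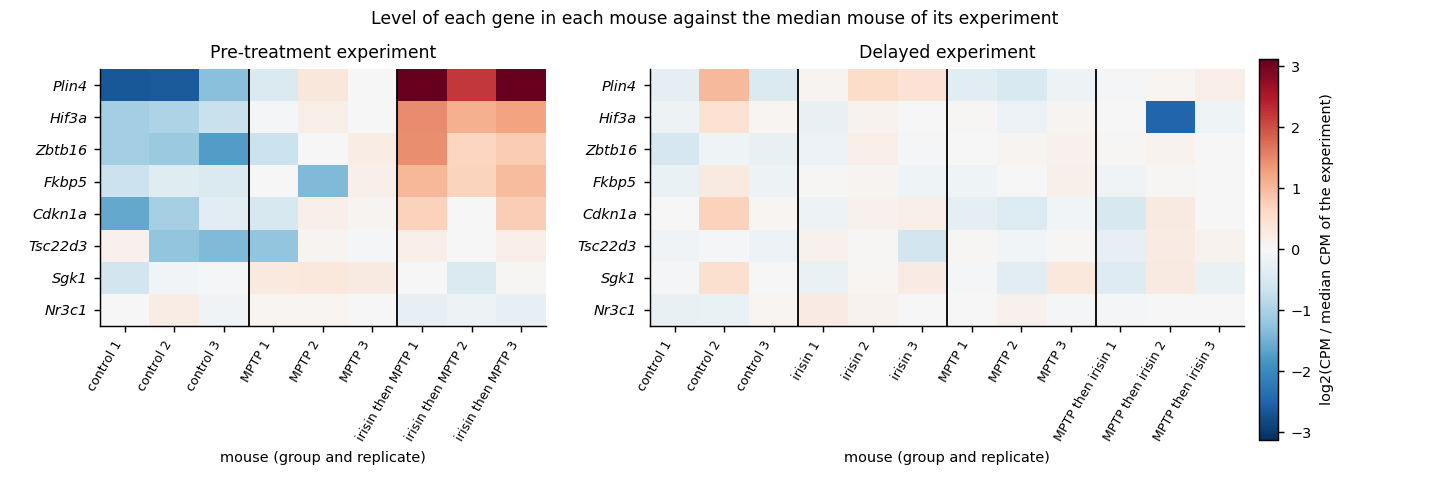
Log2 ratio of CPM in each mouse to the median mouse of its experiment (colour; red higher, blue lower) for the 8 genes (rows) in 9 and 12 mice (columns, black lines between groups). Blue control mice and red irisin pre-treated mice stand out on the left, and on the right the colours are pale except for control mouse 2 and Hif3a in 1 mouse given MPTP then irisin.

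In none of these 3 comparisons and not in the interaction did any of the 8 genes pass the threshold, with edgeR or with DESeq2. For MPTP against control, edgeR gave 0 of 8 (0.132% of all genes), and at an unadjusted p under 0.05 the count was 2 (8.33%), Zbtb16 higher and Cdkn1a lower, the same 1 gene wholly higher (8.24%) and 1 wholly lower (7.94%). Irisin alone against control gave 0 of 8 (0.109%) and 2 at an unadjusted p under 0.05 (8.97%), Nr3c1 and Zbtb16, both higher. MPTP then irisin against MPTP gave 0 of 8 (0.00456%), 0 at an unadjusted p under 0.05 (3.9%) and 1 wholly higher (5.35%). Medians of the 8 log2 fold changes were -0.07, 0.0046 and -0.02 in these comparisons. The interaction of irisin and MPTP gave 0 of 8 (0.0411%) and 1 at an unadjusted p under 0.05 (5.57%), Nr3c1 at -0.30 ± 0.13 (adjusted p = 0.893 by edgeR).

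Control mouse 2 had the highest level of the 12 mice in 5 of the 7 inducible genes and a mean rank of 10, where the others had mean ranks of 3.86 to 9.86. The other control mice had mean ranks of 3.86 and 4.71, where 1 would be the lowest and 12 the highest mouse in every gene.

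Whether MPTP moved these genes differently in the experiments was tested in a fit of all 21 mice as the difference of the log2 fold changes, pre-treatment minus delayed. With edgeR 0 of 8 genes passed (0.103% of all genes) and 4 had an unadjusted p under 0.05 (5.68%), all with a larger change in the pre-treatment experiment. DESeq2 called 1, Plin4. As results of these mice were known when the list was drawn up, these counts are no independent evidence. The difference was 2.61 ± 0.54 for Plin4 (adjusted p = 0.128 by edgeR), 1.40 ± 0.41 for Cdkn1a (adjusted p = 0.579), 0.83 ± 0.32 for Zbtb16 (adjusted p = 0.786) and 0.68 ± 0.29 for Sgk1 (adjusted p = 0.836). Without control mouse 3 of the pre-treatment experiment, whose Plin4 level was the highest of its group, the difference of Plin4 was 3.2006 with an adjusted p of 0.0163. MPTP mice of the experiments differ in the order of the injections and in the days since the last MPTP dose, which cannot be told apart from the experiment.

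The control mice of the experiments carry the same label, ddH2O for 10 days, and yet differed in these genes. Each table was scaled by itself, so the levels are set side by side without a test. Mean Plin4 was 2.57 CPM in the control mice of the pre-treatment and 72.4 CPM in those of the delayed treatment experiment, a ratio of 28.2. The ratio was 4.67 for Cdkn1a, 3.94 for Zbtb16, 3.08 for Hif3a, 2.50 for Fkbp5 and 2.20 for Tsc22d3, and 1.30 for Sgk1. In all 7 inducible genes every control mouse of the delayed experiment lay above every control mouse of the pre-treatment experiment. Nr3c1 went the other way, with a ratio of 0.636 and all delayed control mice below. A mean at least 2 times higher together with no overlap, a rule set after seeing the values, was met by 6 of the 8 genes and by 3.07% of 21153 genes kept in both tables, whose median ratio was 0.987. Because the list was drawn up with results of these mice known, this share describes the list and is no independent evidence. Set beside irisin pre-treated MPTP mice, the mean of the delayed control mice was 0.676 times theirs in Hif3a, 0.799 times in Zbtb16, 0.932 times in Plin4, 0.948 times in Fkbp5 and 1.71 times in Cdkn1a.

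Other measures differed between the experiments as well. Mitochondrial genes took 10.6 to 12.9% of counts in the pre-treatment and 7.65 to 9.50% in the delayed experiment. The 5 choroid plexus markers summed to 7.10 to 23.7 CPM in 8 of the 9 mice and to 33.1 to 1605 CPM in the delayed experiment, and 7 astrocyte markers to 2279 to 2899 CPM and 3144 to 3865 CPM. Their part in the levels of the 8 genes was not tested. In bulk tissue, a change in the number of cells of a type and a change in RNA per cell cannot be told apart.

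Cell type markers were summed in each mouse to set beside the pre-treatment result, since Fkbp5, Tsc22d3 and Plin4 are expressed in glial, vascular and fat cells. The 10 endothelial markers, none at 0, summed to 301 to 375 CPM in control mice, 307 to 318 CPM in MPTP mice and 320.2 to 345 CPM in irisin pre-treated MPTP mice. Irisin pre-treated mice thus lay above MPTP mice in this sum and overlapped control mice. For 8 oligodendrocyte markers the ranges were 9128 to 13879, 8281 to 10840 and 8867 to 10975 CPM, for 7 astrocyte markers 2279 to 2899, 2398 to 2638 and 2291 to 2548 CPM, and for 6 microglial markers 208 to 237, 190.5 to 224 and 195 to 208 CPM. The groups overlapped in each of these 3 sums. For 6 mural cell markers the sums were 247 to 273, 244 to 252 and 228 to 235 CPM, with irisin pre-treated mice below the other 6. The part of these cells in the results above was not tested. Of 4 adipocyte markers 3 were in the pre-treatment table, at summed levels of 0 to 0.401 CPM over the 9 mice, with at most 25 counts for any of them. In the delayed experiment all 4 were found, at 0.157 to 11.1 CPM. The 7 markers of dopaminergic neurons, the cells that mark the labelled midbrain tissue, summed to 513 to 815 CPM in control mice, 529 to 846 CPM in MPTP mice and 529 to 619 CPM in irisin pre-treated MPTP mice. Aldh1a1 made up most of this sum, at 280 to 480 CPM over the 9 mice, Th was at 21.3 to 55.1 CPM, and Pitx3 was at 0 in at least 1 mouse and at most at 0.960 CPM. After irisin pre-treatment the median log2 fold change of these markers was -0.68 against control and -0.55 against MPTP mice, while the sums of all groups overlapped. Of the 7, 0 passed with edgeR in either comparison (0.0707% of all genes in each). At an unadjusted p under 0.05, 3 (against control) and 2 (against MPTP) were lower and 0 higher, with no share of all genes given at that level. For MPTP against control the median was 0.16 in this experiment and -0.58 in the delayed experiment. In the latter, 4 of 7 were lower at an unadjusted p under 0.05 (8.33% of all genes in either direction). The part of dopaminergic neurons in the results above was not tested.

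The 5 erythroid markers summed to 529.6 to 826 CPM in control mice, 549 to 810.4 CPM in MPTP mice and 231 to 455 CPM in irisin pre-treated MPTP mice, which lay below the other 6. With edgeR 0 of 5 passed after irisin pre-treatment, against control or MPTP (0.0707% of all genes in each). All 5 were lower at an unadjusted p under 0.05 in both. No share of all genes is given at that unadjusted level, so nothing is read from this count. The part of residual blood in the results above was not tested. In the delayed experiment the sums were 309 to 870 CPM, without such an order.

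Other genes known to respond to glucocorticoid were set beside the 8. This list too was drawn up with earlier results known. Of 28 such genes, none of them on the list of 8, 0 passed with edgeR for MPTP against control in the pre-treatment experiment (0.0221% of all genes). At an unadjusted p under 0.05, 9 were higher and 0 lower (6.03% of all genes in either direction), and DESeq2 called 2. For irisin pre-treated MPTP against control 1 of 28 passed (0.0707% of all genes), Mertk, an engulfment receptor of glia. It was at 21.2 ± 1.76 (SD), 31.2 ± 2.23 and 46.7 ± 4.28 CPM over the 3 groups. Its log2 fold change was 1.14 ± 0.10 (adjusted p = 0.012 by edgeR). The largest rise in that comparison was 1.63 ± 0.24 for the sulfotransferase gene Sult1a1 (adjusted p = 0.0726) and the largest fall -0.88 ± 0.26 for Dusp1, a phosphatase gene that is also an immediate-early gene (adjusted p = 0.524). The median of the 28 was 0.18, and 11 were higher and 5 lower at an unadjusted p under 0.05. The share of all genes at that level is not given for the comparisons after irisin pre-treatment. Such counts of any list or marker set in them therefore have no background beside them. DESeq2 called 8 higher and 1 lower.

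In the comparison of irisin pre-treated MPTP with MPTP mice the extremes were again Sult1a1 (1.04 ± 0.23) and Dusp1 (-1.08 ± 0.26), and edgeR called 0 of 28. At an unadjusted p under 0.05 the counts were 7 higher and 5 lower, and DESeq2 called 5 higher and 2 lower. Map3k6 had the largest rise after MPTP alone, at 0.79 ± 0.20 (adjusted p = 0.729 by edgeR), and Lcn2, at under 1 CPM in that experiment, the largest fall, at -0.39 ± 0.96 (adjusted p = 0.982 by edgeR). In the delayed experiment 0 of 28 passed with edgeR in any comparison, and for MPTP then irisin against MPTP 3 were higher at an unadjusted p under 0.05 and DESeq2 called 1. For MPTP against control 1 was higher and 8 lower at an unadjusted p under 0.05, with extremes of 1.03 ± 0.52 for Klf9 (adjusted p = 0.642) and -2.59 ± 0.86 for Lcn2 (adjusted p = 0.436), and DESeq2 called 1 lower. Both extremes came with widely spread control mice. Klf9 spanned 25.6 to 157.5 CPM in control and 135 to 156.6 CPM in MPTP mice. Lcn2, a gene of few counts, spanned 1.05 to 8.04 and 0.523 to 0.737 CPM.

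No gene of the receptor machinery passed. Of 15 genes, among them the mineralocorticoid receptor Nr3c2, the chaperones Hsp90aa1, Hsp90ab1, Hspa8 and Fkbp4, the co-regulators Ncoa1 and Ncoa2, and Hsd11b1, which regenerates active hormone in cells, 0 passed in any of the 8 comparisons with edgeR. DESeq2 called 1 in each of 2 delayed comparisons. In the pre-treatment experiment all of their log2 fold changes lay between -0.26 (Hspa8, irisin pre-treated MPTP against control) and 0.21 (Ncoa2, MPTP against control), although the SE of Ncoa2 was 0.70. At an unadjusted p under 0.05 there were 0 for MPTP against control and 1 for irisin pre-treated MPTP against control, and at most 3 in any comparison. Hsd11b1 was at 37.7 ± 10.4, 35.4 ± 0.0459 and 37.7 ± 6.46 CPM (SD) over the 3 groups.

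Immediate-early genes, which neurons and vessels switch on within minutes of a stimulus, were set beside the 8 genes because stress moves both kinds. The list was drawn up with earlier results of these mice known, so its counts are no independent evidence. Of its 16 genes, 5 passed with edgeR for irisin pre-treated MPTP against control mice (0.0707% of all genes). All 5 were lower (Btg2, Fos, Jun, Klf2 and Apold1), and DESeq2 called 10, all lower. The median log2 fold change of the 16 was -1.11. Against MPTP mice 7 passed (0.0707% of all genes), all lower (these 5, Klf4 and Atf3), with a median of -1.22, and DESeq2 called 11, all lower. For MPTP against control 1 passed (0.0221% of all genes), Klf4 at 1.39 ± 0.14 (adjusted p = 0.0211 by edgeR), and DESeq2 called 4, all higher. In the delayed experiment 2 passed for MPTP against control (0.132% of all genes), both lower, and DESeq2 called 5, all lower. They were Btg2 at -1.89 ± 0.27 and Apold1 at -2.56 ± 0.38 (adjusted p = 0.0236 and 0.0308 by edgeR). For MPTP then irisin against MPTP 0 of 16 passed with edgeR (0.00456% of all genes). At an unadjusted p under 0.05, 5 were higher and 1 lower (3.9% of all genes in either direction). The median was 0.42, and DESeq2 called 2, both higher. The part of the stimulus behind these genes in the levels of the 8 genes was not tested.

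**Figure D4:**
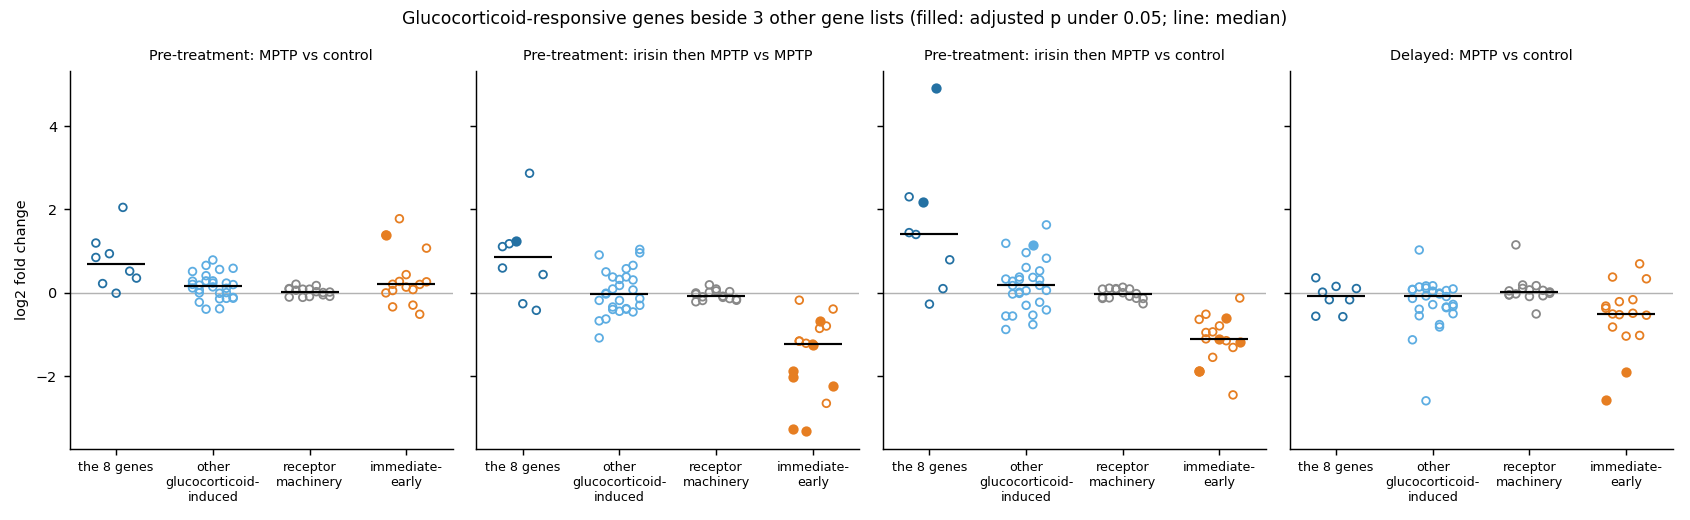
Log2 fold change (y axis) of each gene of 4 lists (points; filled where the adjusted p of edgeR is under 0.05, lines for the median of a list) in 3 comparisons of the pre-treatment experiment and MPTP against control of the delayed experiment. In irisin pre-treated MPTP against control mice the 8 genes have a median of 1.42 and the 16 immediate-early genes one of -1.11, and no gene of the receptor machinery is filled.

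The genes most like the 7 inducible genes over the mice were sought among 21153 genes kept in both experiments, by the mean squared difference of standardised log2 CPM from the standardised mean of the 7 genes, taking the larger of both experiments' values. The 5 closest outside the list were Pla2g3 (0.233), Sult1a1 (0.318), Serinc3 (0.344), Map3k6 (0.349) and Sgk3 (0.371). Pla2g3, a secreted phospholipase gene, was at 5.98 to 7.27 CPM in control mice, 9.12 to 14.9 CPM in MPTP mice and 14.7 to 22.4 CPM in irisin pre-treated MPTP mice. Sgk3, a relative of Sgk1, was at 10.9 to 19.0, 13.1 to 26.9 and 18.2 to 48.8 CPM, with overlap. Of the 7 genes themselves Plin4 was closest (0.356), ahead of Cdkn1a (0.483) and Fkbp5 (0.501), and Hif3a was the farthest (1.69), by its value in the delayed experiment, with 0.0596 in the pre-treatment experiment. The measure is a description over 9 and 12 mice, and the 7 genes are part of the mean they are set against.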

How the data were processed

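Total RNA of 21 mice in 7 groups of 3 was sequenced on an Illumina NovaSeq. The authors deposited raw counts per gene made with featureCounts, and FPKM values beside them, in 1 table per experiment. The submitters' processing notes name HISAT, StringTie, edgeR and mm9, with no versions, but 92.0% of genes in the pre-treatment table and 94.3% in the delayed table have the same start and end as in GENCODE M21, so coordinates are given as GRCm38. Strand use is not given in the sources used here.

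Groups came from the labels. Counts were tested with edgeR 4.0.16 in R 4.3.3 by the quasi-likelihood test, with TMM scaling, genes kept by filterByExpr (least count 10, least total 15), all groups of an experiment in 1 fit, and Benjamini-Hochberg adjusted p-values with a threshold of 0.05, in 8 comparisons. CPM are counts divided by the TMM-scaled library total in M. A difference in the MPTP effect between the experiments was tested in a joint fit. With 3 mice against 3 an exact two-sided permutation test cannot go below 0.1. DESeq2 1.42.0, limma 3.58.1 on log2(FPKM + 1) and log2(FPKM + 0.1), other filters, a replicate block and leaving out each mouse were alternatives. The steps were tested on simulated data. The 8 genes and all lists were chosen with earlier results of these data known. Text names each of the 8 genes, list genes that passed, those with the largest rise or fall, and the 5 genes most alike. The rules on stepwise groups and on control mice, and the values of Fam107a, Hdgfl2, Hsd11b1, Aldh1a1, Th and Pitx3, were chosen after values were seen. No 2 mice of a group agreed within sampling noise (smallest chi-square per gene 39.8).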

Additional observations from a re-analysis of the deposited data

Results flagged for a closer look

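The effect of MPTP against control differed between the experiments in 4 immediate-early genes set beside the 8 glucocorticoid-responsive genes, by edgeR's test of the difference of log2 fold changes (pre-treatment minus delayed). Of all genes 0.103% passed that test. Apold1 differed by 3.93 ± 0.46 (SE, n = 3 mice per group; adjusted p = 0.000819), with 9.55 to 12.3 CPM in control and 22.6 to 36.3 CPM in MPTP mice of the pre-treatment experiment and 14.2 to 37.5 and 2.98 to 4.43 CPM in those of the delayed experiment. Btg2 differed by 2.02 ± 0.32 (adjusted p = 0.0136 by edgeR), Klf4 by 1.75 ± 0.31 (adjusted p = 0.0345 by edgeR) and Klf2 by 1.598 ± 0.23 (adjusted p = 0.00423 by edgeR). The order of injections differs between the experiments and cannot be told apart from them.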

How the results depend on the processing

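Median ratio scaling left every count within 1.5 times and every direction in place. DESeq2 called more genes throughout: 91, 169 and 191 where edgeR called 5 (MPTP against control), 16 (irisin pre-treated MPTP against MPTP) and 16 (irisin pre-treated MPTP against control) in the pre-treatment experiment, 178, 144, 34 and 62 where edgeR called 29 (MPTP against control), 24 (irisin alone), 1 (MPTP then irisin against MPTP) and 9 (interaction) in the delayed experiment, and 85 where edgeR called 24 for the difference of MPTP effects. Of the 8 genes it called 3, 4, 5 and 1 (MPTP against control, irisin pre-treated MPTP against MPTP, the same against control, and the difference of MPTP effects) in place of 0, 1, 2 and 0. Fits of only the compared groups called 10 (MPTP, pre-treatment), 10 (MPTP, delayed), 14 (irisin alone) and 9 (MPTP then irisin) genes. Keeping all genes with any count gave 9 for irisin pre-treated MPTP against control and 2 for MPTP then irisin. limma on log2(FPKM + 1) gave 5 (irisin pre-treated MPTP against control), 17 (MPTP, delayed), 2 (MPTP then irisin), 4 (interaction) and 7 (difference of effects), and with a pseudocount of 0.1 it gave 5 (irisin pre-treated MPTP against control), 7 (MPTP then irisin) and 5 (interaction). With a mean FPKM of at least 1 it gave 4 (interaction) and 13 (difference). For irisin pre-treated MPTP against MPTP limma called 0 of the 8 genes with either pseudocount and 2 with that filter. Fkbp5 passed for irisin pre-treated MPTP against control (1.39) when only these groups were fitted. The cause was not tested.

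Mice with the same number did not deviate together (r from -0.0776 to 0.101 over 9 pairs and from -0.0765 to 0.0387 over 18), so the numbers do not pair them. A replicate block gave 2, 8 and 2 genes in the pre-treatment comparisons and 17 and 14 for MPTP and irisin alone in the delayed ones. It called 0 of the 8 genes for irisin pre-treated MPTP against MPTP, where Hif3a was at 1.25 (adjusted p = 0.139 by edgeR). Against control it called 1 of the 8, and Plin4 no longer passed (5.00, adjusted p = 0.0621 by edgeR).

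Leaving out 1 mouse at a time gave 4 to 17, 10 to 26 and 5 to 20 genes in the pre-treatment comparisons, 16 to 35, 16 to 29, 1 to 7 and 7 to 19 in the delayed ones, and 13 to 33 for the difference of effects. Of the 8 genes it called 0 to 2 and 1 to 3 after irisin pre-treatment (against MPTP and control) and 0 to 1 for the difference. Log2 fold changes near 0 changed sign. For MPTP in the pre-treatment experiment Nr3c1 ran from -0.0815 to 0.0858 (0.0034, 0.0040 and 0.0034 with limma) and Fkbp5 from -0.0484 to 0.566, and Sgk1 ran from -0.0525 to 0.236 for irisin pre-treated MPTP against control. For MPTP in the delayed experiment Fkbp5 ran from -0.0735 to 0.191, Sgk1 from -0.358 to 0.0173, Hif3a from -0.302 to 0.028 and Plin4 from -0.826 to 0.0422. For irisin alone Fkbp5 ran from -0.0871 to 0.177, Plin4 from -0.11 to 0.758, Sgk1 from -0.262 to 0.0466, Hif3a from -0.32 to 0.0101, Cdkn1a from -0.352 to 0.0299 and Tsc22d3 from -0.129 to 0.196 (-0.0086, -0.0098 and -0.0086 with limma, -0.0012 with the block). For MPTP then irisin Nr3c1 ran from -0.0899 to 0.0061, Fkbp5 from -0.098 to 0.0512, Sgk1 from -0.316 to 0.098, Zbtb16 from -0.054 to 0.0271 and Tsc22d3 from -0.0519 to 0.196. For the interaction Fkbp5 ran from -0.204 to 0.0605, Sgk1 from -0.178 to 0.236, Plin4 from -0.359 to 0.509, Tsc22d3 from -0.134 to 0.189 and Hif3a from -0.683 to 0.128, and for the difference of effects Tsc22d3 from -0.0152 to 0.884 and Fkbp5 from -0.0655 to 0.545.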
